A study of Mus musculus with 30 samples.

Results

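The 7 CC chemokine genes Ccl3, Ccl4, Ccl5, Ccl6, Ccl9, Ccl17 and Ccl22 were followed by name through 8 organs of mice with and without collagen-induced arthritis (CIA), as 7 of 23013 gene rows. All 7 had a row, matched by Entrez gene number. Gene expression had been measured by Seq-Well, in which cells share small wells with barcoded beads, in 30 libraries of 8 male DBA1/J mice, aged 8 to 12 weeks in the study's methods. The CIA mice S1, S2, S6 and S7 had been given 100 µg of bovine collagen II in Complete Freund's Adjuvant, with a booster of collagen in incomplete adjuvant on day 20, and had arthritis scores of 8, 8, 3 to 4 and 3. Saline was given to the healthy mice (H3, H4, H6, H7), which scored 0. They received no adjuvant, so the response to collagen and that to adjuvant cannot be told apart. Both blood, as mononuclear cells from a gradient, and lymph node were sampled in 4 healthy mice and in 3 with CIA, namely S2, S6 and S7 for blood and S1, S2 and S7 for lymph node. Joint came from H3 and S1, and lung, muscle, skin, spleen and thymus from H6 and S1, so 6 organs had 1 mouse per state and no replicates.

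CC chemokines are small secreted proteins that steer leukocytes through G protein-coupled receptors. Ccl17 and Ccl22 are the ligands of Ccr4, a receptor of regulatory and type 2 helper T cells, and are known as products of dendritic cells and macrophages. Ccl3, Ccl4 and Ccl5 are inflammatory chemokines made by activated leukocytes, and Ccl3 and Ccl5 bind Ccr1. Ccl6 and Ccl9 are mouse myeloid chemokines that signal through Ccr1. In arthritis such ligands are studied as attractants of monocytes and lymphocytes to the synovium.

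By the RefSeq annotation of GRCm38.p6, 5 members lie on chromosome 11 and 2 on chromosome 8. On chromosome 11, Ccl5 (83525778 to 83530518) is followed by Ccl9 (83572917 to 83578636), by Ccl6 (83587886 to 83593087), which begins 9250 bases after the end of Ccl9, and by Ccl3 (83647843 to 83649378) and Ccl4 (83648624 to 83664683). The gene models of Ccl3 and Ccl4 overlap, and strand use in the counting was not given in the sources used here, so reads could be split between both. On chromosome 8, Ccl22 (94745684 to 94751388) lies 57992 bases before Ccl17 (94809380 to 94812038). RefSeq promoters, 250 bases before to 50 after a gene start, were at hand for 5 of the 7 members. In 4 of these the start is the edge of the gene model given above, but the Ccl17 window surrounds a start 1073 bases inside its model, so it does not cover the model's edge. Those of the neighbours Ccl17 and Ccl22 are shown because of the pair only Ccl17 was above 0 in the joint, and those of the neighbours Ccl6 and Ccl9 because both were at 0 in lymph node, skin and thymus. Capitals mark matches, on either strand, to the motifs TTCNNNNGAA, TTCNNNGAA, AGGAAGT and TATAAA and to the NF-kappaB motif.
Ccl17, chr8:94810203-94810502, plus strand: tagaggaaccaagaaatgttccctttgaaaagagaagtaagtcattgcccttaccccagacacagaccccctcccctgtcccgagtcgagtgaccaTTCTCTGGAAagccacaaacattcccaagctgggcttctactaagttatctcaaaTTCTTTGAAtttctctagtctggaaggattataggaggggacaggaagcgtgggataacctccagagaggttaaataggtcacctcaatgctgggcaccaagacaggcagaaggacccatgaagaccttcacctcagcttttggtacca
Ccl22, chr8:94745434-94745733, plus strand: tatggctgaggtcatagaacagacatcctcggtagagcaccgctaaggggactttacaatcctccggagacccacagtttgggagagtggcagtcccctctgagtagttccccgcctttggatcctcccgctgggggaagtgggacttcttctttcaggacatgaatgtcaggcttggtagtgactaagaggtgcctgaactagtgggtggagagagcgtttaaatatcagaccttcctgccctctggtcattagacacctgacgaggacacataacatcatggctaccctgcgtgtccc
Ccl6, chr11:83593038-83593337, minus strand: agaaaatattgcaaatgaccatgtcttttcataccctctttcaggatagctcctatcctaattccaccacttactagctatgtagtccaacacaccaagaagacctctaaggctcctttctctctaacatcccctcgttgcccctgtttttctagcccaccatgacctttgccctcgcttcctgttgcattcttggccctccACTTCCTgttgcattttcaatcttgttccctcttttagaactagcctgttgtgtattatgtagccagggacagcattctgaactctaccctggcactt
Ccl9, chr11:83578587-83578886, minus strand: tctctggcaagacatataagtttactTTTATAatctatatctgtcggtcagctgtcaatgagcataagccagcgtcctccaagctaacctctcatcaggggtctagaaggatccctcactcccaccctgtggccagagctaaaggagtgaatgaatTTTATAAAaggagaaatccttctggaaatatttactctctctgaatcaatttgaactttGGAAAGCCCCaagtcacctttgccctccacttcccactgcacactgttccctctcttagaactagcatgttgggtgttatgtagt
The Ccl17 window held 1 match to TTCNNNNGAA, present in 6.99% of 27025 promoters of this length, and 1 to TTCNNNGAA, present in 8.47%. The Ccl22 window held no match to any of the 5 motifs. Ccl6 had 1 match to AGGAAGT (9.57% of promoters). Ccl9 had 1 to the NF-kappaB motif (4.35%) and 3 to TATAAA (14.2%), of which 2 overlap. The Ccl6 and Ccl9 windows shared a local alignment of 74 columns with 79.7% identity and an alignment score of 41. Ccl17 and Ccl22 had a score of 15, close to the scores of 10 to 14 of the other 8 pairs of windows, most of them on different chromosomes.

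Before the results, the libraries need describing. The deposited values are smoothed over a barcode and its nearest neighbours and are called units here. A level is given as units per 1000000 units of a library or mouse (UPM). Libraries held 27 to 934 barcodes and 217494 to 7886790 units, and 13 barcode sequences occurred in more than 1 library. Titles end in CIA or 2CIA, a suffix the labels do not explain. All CIA blood libraries carried 2CIA, and outside blood, lymph node and joint the suffix and the state cannot be told apart. In joint the healthy library and 1 of 2 CIA libraries carried 2CIA. Genes with a largest value of 1 made up 5.25% to 58.1% of the genes above 0 in a library. The study's methods give a lowest share of cells in which a gene had to be found, for its main analysis of fewer organs. Whether that rule was applied here, and how rare genes were treated in each library, was not given in the sources used here. A 0 is given only as listed at 0. Defining markers fitted lymph node and thymus (summed T cell markers of 1248 to 3725 UPM) and skin (keratinocyte markers of 1777 and 1031 UPM). The healthy muscle library went against its label. Its skeletal muscle markers summed to 48.0 UPM with Myh4, Ckm and Tnnt3 at 0, and its neutrophil markers to 105357 UPM, against 1955 and 18658 UPM in the CIA muscle.

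Across the organs, the members differed in how widely they were found. Ccl5 was above 0 in 27 of 30 libraries, Ccl4 in 25, Ccl3 in 24, Ccl6 in 16, Ccl9 in 15, Ccl17 in 2 and Ccl22 in 1. Ccl17 was above 0 in the joint alone among these libraries. Ccl22 was listed with 8 units, 1 in each of 8 barcodes, in the healthy spleen (6.89 UPM) and at 0 in the other 29 libraries. Ccl6 and Ccl9 were both confined to joint, blood, lung, muscle and spleen. In the 11 lymph node and thymus libraries and both skin libraries the values of this pair were 0, while Ccl5 was above 0 in all 13. The highest levels were 1839 UPM of Ccl6 in the healthy lung, 1447 of Ccl5 in the blood of S6, 740.2 of Ccl4 in the blood of H3, 465 of Ccl17 in the healthy joint, 317 of Ccl3 and 200.1 of Ccl9 in the blood of S6.

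**Figure D1:**
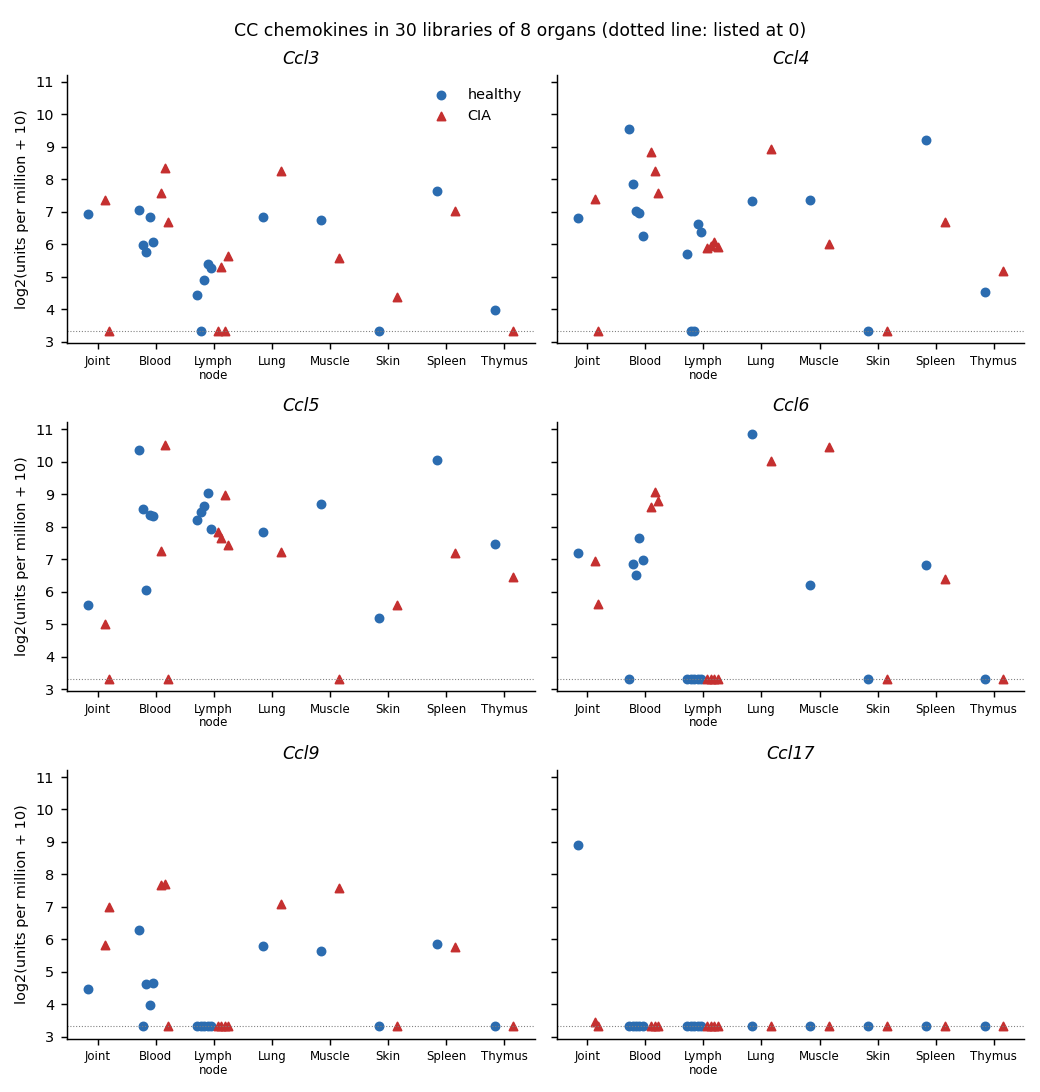
Level of 6 members in each of the 30 libraries, on the scale log2(UPM + 10), by organ; circles are healthy and triangles CIA libraries, and the dotted line marks a value of 0. Ccl17 stands above the line in the joint alone, at 465 UPM in the healthy library, and all lymph node points of Ccl6 and Ccl9 lie on it.

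The joint, the organ with macroscopic arthritis in this model, was compared between H3 and S1 to ask which chemokines differ at the site of disease. Ccl17 was far lower in the CIA joint. The healthy joint held 915 Ccl17 units, or 465 UPM, and the CIA joint 8 units, which were 1.02 UPM in its 2CIA library and 0 in its CIA library. The log2 ratio of CIA over healthy was -8.86, with 0.5 units added to each side. Ccl9 was 4.18-fold higher in CIA, at 12.2 UPM in the healthy library and at 47.1 and 118 UPM in both CIA libraries, a log2 ratio of 2.06. The healthy Ccl9 value was 24 units, 1 in each of 24 barcodes, against 441 units in CIA. The 50 units asked for below were thus reached by Ccl9 through CIA and by Ccl17 through the healthy joint. Both CIA libraries lay above the healthy one for Ccl9 and below it for Ccl17. With 1 mouse per state there is no test, and what follows describes these 2 mice.

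Of 6 members with at least 50 units over both states, 1 was past 2-fold higher and 1 past 2-fold lower. Ccl4, at a log2 ratio of 0.52, also passed 2-fold under the trimmed-mean scaling (1.11) and the median of ratios (1.08). Among all 11421 genes with that many units, 37.8% were past 2-fold higher and 23.7% past 2-fold lower, so the share of members is not above the background. The median log2 ratio of all these genes was 0.14, and 0.74 when libraries were scaled by a trimmed mean of log ratios. Ccl3 stood at 113 UPM in the healthy joint and at 156 and 0 UPM in the CIA libraries. Ccl4 stood at 103 UPM, and at 158 and 0. Within each library the values of this pair were alike. Ccl5 was low, at 38.1 UPM, and at 22.3 and 0. Its log2 ratio of -0.88 passed 2-fold lower with each distinct profile counted once. In the CIA joint 9 barcodes with 15 units each held most of its 176 units. Ccl6 stood at 136 UPM, and at 113 and 38.9, and its log2 ratio of -0.34 turned to 0.26 under the trimmed-mean scaling and to 0.67 with each distinct profile counted once. The CIA library at 0 for Ccl3, Ccl4, Ccl5 and Ccl17 was the smaller, with 70 barcodes of 20 distinct profiles, and 6.18% of its genes had a largest value of 1, against 37.1% in the other.

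Cell type markers differed between the joints. Neutrophil markers reached a sum of 62258 UPM in H3 and of 133211 and 86717 in both libraries of S1. Monocyte markers summed to 863 UPM, and to 1058 and 1749.9 in CIA, macrophage markers to 824, and to 585 and 579.9, and dendritic markers to 81.9, and to 76.8 and 59.2. Of the 10 dendritic markers, 8 were at 0 in the healthy joint, Flt3, Zbtb46 and Ccr7 among them. The part of these differences in the chemokine levels was not tested. In summed libraries, fewer cells of a type and less RNA per cell cannot be told apart.

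Ccl17 was unevenly spread within the healthy joint. Of 193 barcodes, 91 had at least 1 unit, in 38 distinct profiles. A set of 15 barcodes held 740 of the 915 units, or 80.9%: 11 had 48 units each and 4 had 53, and the 15 shared only 2 profiles. The next highest value was 7 units. Because smoothing pools the values of neighbours, the 15 barcodes may rest on few cells, and the number of cells with Ccl17 cannot be read from them. Without these 15 barcodes the healthy joint stood at 99.5 UPM and the log2 ratio at -6.64, a split chosen after the values were seen.

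**Figure D2:**
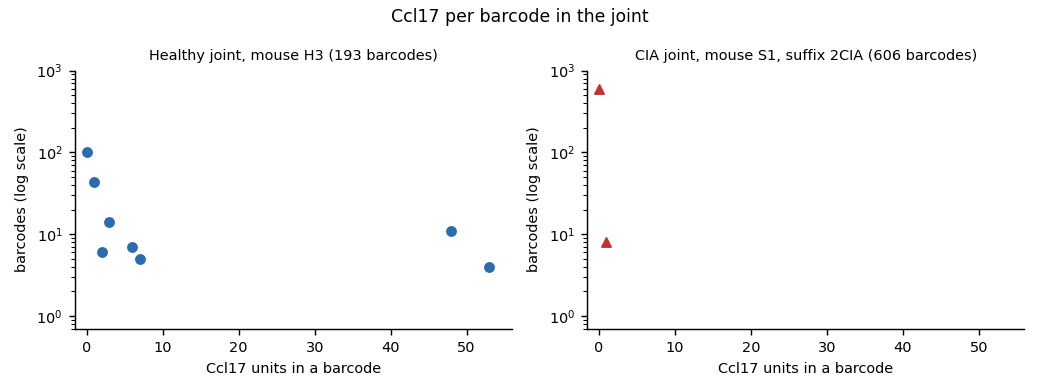
Number of barcodes (log scale) by Ccl17 units in the barcode, in the healthy joint of H3 and in the CIA joint library of S1 with the suffix 2CIA. In the healthy joint 11 barcodes lie at 48 units and 4 at 53, with all others at 7 or below, whereas 598 of 606 CIA barcodes are at 0 and 8 at 1.

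The 15 barcodes were described by other genes, as means over barcodes of their UPM. The antigen presentation genes H2-Aa, H2-Ab1 and Cd74 stood at 5121, 4469 and 6758 UPM in them and at 841, 570.1 and 1209 in the other barcodes of that library. Cd83 stood at 252 against 40.7 UPM and Itgax, which encodes CD11c, at 72.4 against 6.02. The other 8 dendritic markers were at 0 in the 15. Of 8 macrophage markers 6 were above 0, with a sum of 1269 UPM against 739.9 elsewhere, while Adgre1 and Ms4a7 were at 0. The platelet list stood at 703.8 against 47.8 UPM, with only Pf4 above 0 in the 15. Neutrophil markers summed to 4495 against 57969 UPM, and fibroblast markers, all 5 above 0, to 3577 against 18110. T cell markers summed to 0 against 26.3 UPM, and NK and cytotoxic markers to 0 in both. Monocyte markers, with Chil3 and Fcgr1 at 0 in the 15, summed to 860 against 743 UPM. Of that list Ccr2 alone stood at 559 against 50.5 UPM. These are 2 profiles of 1 library, so no cell type was assigned to them. The gene with the largest log2 difference was Atf7, at 3620.5 against 10.5 UPM, named after its values were seen.

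Ccr4, the receptor of Ccl17 and Ccl22, was at 0 in all 3 joint libraries and above 0 in 4 of 30 libraries, at most 10.9 UPM in a lymph node (S2). Ccr8 was at 0 in every library. Ccr1, the receptor of Ccl3, Ccl5, Ccl6 and Ccl9, stood at 52.9 UPM in the joint of H3 and 178 in that of S1. Ccr3 stood at 0 and 15.1 UPM, and Ackr2, a scavenger of inflammatory CC chemokines, at 0 and 3.07. Ccr2 stood at 100.2 and 55.4 UPM and Sdc4, a heparan sulphate proteoglycan that binds chemokines, at 379 and 231. Of 13 other CC chemokines, 9 had a row, and 4 were not analysed here (Ccl1, Ccl19, Ccl21a and Ccl27a). The 4 with the highest joint levels were Ccl2, at 575 UPM healthy and 472 CIA, Ccl7 at 374 and 217, Ccl11 at 45.3 and 9.44, and Ccl8 at 38.1 and 41.1.

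Blood allowed a test of state over mice. Ccl6 had the largest difference of the members. In the healthy mice it was listed at 0 (H3) and at 86.1 (H4), 194 (H6) and 117 UPM (H7). The CIA mice had 385 (S2), 532 (S6) and 431 UPM (S7). Each CIA mouse was above each healthy mouse, at 449 ± 75.2 against 99.2 ± 80.2 UPM (SD, n = 3 and 4). The log2 difference on the scale log2(UPM + 10) was 2.69 (SE 0.83), with a limma p of 0.00356 and a Benjamini-Hochberg adjusted p of 0.383, so it did not pass. Over the alternatives tried the adjusted p ranged from 0.0247 to 0.609, and it passed only without H6 (log2 difference 3.20, limma adjusted p 0.0247), where 0.496% of all genes were called. Without H3, whose library was the smallest, the difference was 1.75 (limma adjusted p 0.470). Among libraries with the suffix 2CIA, with 2 healthy and 3 CIA mice, the difference was 3.75 (limma adjusted p 0.0659).

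Of the 7 members, 5 passed the filter of a mean of 25 UPM in blood, and Ccl17 and Ccl22 were at 0 in all blood libraries. limma called 0 of the 5, against 16 of all 4416 genes (0.362%). An unadjusted p under 0.05 was reached by 1 of the 5 and by 403 of the 4416 genes. The groups did not overlap for 1 of 5 members and for 11.0% of all genes. The median log2 difference was 1.10 over the 5 members and -0.10 over all genes, the latter -0.43 with the trimmed-mean scaling. Ccl9 was 5.62 to 69.0 UPM in the healthy mice, against 195 (S2), 200.1 (S6) and 0 UPM (S7) in CIA, so the groups overlapped through S7 (log2 difference 1.39, SE 1.13, limma adjusted p 0.728). The Ccl9 difference was 2.85 without S7 (limma adjusted p 0.429), 0.65 without S6 and 0.67 without S2. Ccl3 was 45.3 to 124 UPM in healthy, and 181, 317 and 92.2 in S2, S6 and S7 (log2 difference 1.10, SE 0.73, limma adjusted p 0.654).

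Ccl4 and Ccl5 spread widely within both states. Ccl4 had 740.2 UPM in H3 but 137, 116 and 66.6 in H4, H6 and H7, and 447, 295 and 183 in S2, S6 and S7. The states differed in Ccl4 by 0.73 on the log2 scale (SE 0.71, limma adjusted p 0.792) over all libraries, by 1.41 without H3 (limma adjusted p 0.601) and by -0.48 among libraries with the suffix 2CIA. Ccl5, a product of T and NK cells, had 1301 UPM in H3 but 109, 317 and 315 in H4, H6 and H7, and 143, 1447 and 0 in S2, S6 and S7. The log2 difference of Ccl5 was -1.45 (SE 1.07, limma adjusted p 0.692), and 0.40 without S7. The blood of H3, highest of the healthy mice for Ccl3, Ccl4, Ccl5 and Ccl9, held 27 barcodes of 7 distinct profiles.

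Summed monocyte and T cell markers in blood did not overlap between the states. Monocyte markers summed to 57.6 to 308 UPM in the healthy libraries against 696 to 2541 in those of CIA mice, and T cell markers to 248 to 779 against 92.2 to 189.8. Fcgr1 was at 0 in all healthy libraries and in 2 of 3 CIA libraries. Single monocyte markers overlapped. Chil3 was at 0 in S6 and S7 but above 0 in the H4 library with the suffix CIA. Csf1r was at 0 in S7 but above 0 in H3 and H7. The other lists overlapped. Neutrophil markers were 1363 to 5336 UPM in healthy libraries, 5235 in S6 and 63450 and 73335 in S2 and S7, and B cell markers 768 to 2564 UPM and 329.5 to 1694. The NK and cytotoxic markers were 29.3 to 938 and 0 to 829.8 UPM, and macrophage markers 0 to 236 and 0 to 461, with Adgre1 at 0 in every library. Their part in the chemokine values was not tested. Haemoglobin and Alas2 made up 35781 to 561335 UPM, and leaving the haemoglobin genes out of the total gave Ccl6 a log2 difference of 2.65. Of the receptors Ccr1, Ccr2 and Sdc4, none was called (limma adjusted p 0.928, 0.238 and 0.792). Ccr2, which is also one of the monocyte markers, had a log2 difference of 2.62 (SE 0.72), with 189 to 842 UPM in the CIA and 23.8 to 179 in the healthy mice. Of the other CC chemokines Ccl2 and Ccl7 were tested, and neither was called. Ccl2 stood at 0 to 10.2 UPM in healthy mice and at 69.1 to 263 UPM with CIA, without overlap (log2 difference 3.70, SE 0.98, limma adjusted p 0.183). Its healthy mean was 2.81 UPM, so it passed the filter through the CIA mice. Its difference depends on the 10 UPM added, and 11.0% of all genes did not overlap. The Ccl7 difference was -0.46 (SE 0.98, limma adjusted p 0.939).

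In lymph node the members were few. Ccl5 was the leading one in every mouse, with 287, 372, 513 and 234 UPM in H3, H4, H6 and H7, and 219, 193 and 361 in S1, S2 and S7. The groups overlapped, and the log2 difference was -0.42 (SE 0.33, limma adjusted p 0.999). Ccl4 stood at 42.4, 0, 89.4 and 73.5 UPM in H3, H4, H6 and H7, and at 49.2, 52.1 and 54.0 in S1, S2 and S7 (log2 difference 0.43, SE 0.60, limma adjusted p 0.999). limma called 0 of these 2 members and 1 of 5081 genes (0.0197%). An unadjusted p under 0.05 was reached by 0 of the 2 members and by 201 of the 5081 genes. Ccl3 was under the filter, at 11.7 to 31.7 UPM in healthy mice and 0, 29.4 and 16.5 in S1, S2 and S7, with a two-sided exact permutation p of 0.6, where 35 groupings allow no p under 0.0286. Ccl6, Ccl9, Ccl17 and Ccl22 were at 0 in all 9 libraries.

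**Figure D3:**
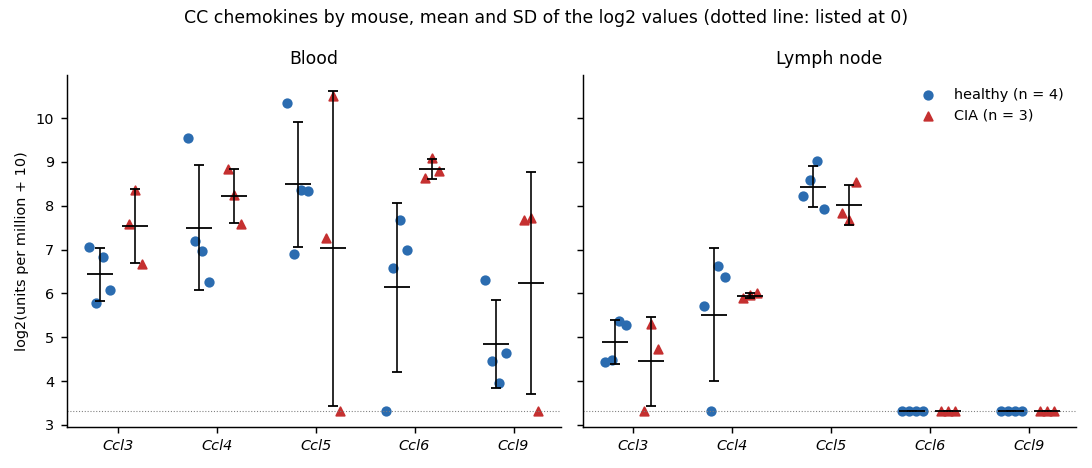
Level of 5 members in each mouse on the scale log2(UPM + 10), in blood and lymph node; circles are healthy (n = 4) and triangles CIA mice (n = 3), and bars give the mean and SD of the log2 values. In blood the 3 CIA points of Ccl6 lie above the 4 healthy points, while in lymph node Ccl6 and Ccl9 lie on the line of 0.

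Healthy lymph node was set against healthy blood of the same 4 mice to ask which members differ between the organs. Lymph node lay below blood for Ccl3 (log2 difference -1.55, SE 0.56, limma adjusted p 0.146), Ccl4 (-1.98, SE 0.72, limma adjusted p 0.145) and Ccl6 (-2.82, SE 0.86, limma adjusted p 0.118), and these did not pass. Ccl6 was at 0 in all 4 lymph nodes and passed the filter through blood alone, so its difference depends on the 10 UPM added. Ccl5 differed by -0.05 (SE 0.54, limma adjusted p 0.971), from 109 to 1301 UPM in blood and 234 to 513 in lymph node. limma called 0 of 4 members and 2 of 5015 genes (0.0399%). An unadjusted p under 0.05 was reached by 3 members, Ccl6 among them, and by 954 of the 5015 genes. With the mouse as a block limma called 0 of these genes, of which 934 had a raw p below 0.05. Without H6 Ccl4 was called (-2.53, limma adjusted p 0.0298), together with 283 of 4877 genes (5.80%), and its difference ran from -2.69 to -1.35 when any 1 mouse was left out. Without H3, whose blood had Ccl6 at 0, the Ccl6 difference was -3.76 (limma adjusted p 0.0567). The organs did not overlap for Ccl3, with 45.3 to 124 UPM in blood and 11.7 to 31.7 in lymph node, as for 7.50% of all genes. Ccl9 was under the filter, above 0 in the blood of 4 of 4 and the lymph node of 0 of 4 mice (two-sided exact permutation p 0.125 within the 4 pairs, the smallest that 16 sign flips allow, and 0.0286 over 70 groupings that ignore the pairs, neither adjusted). The sign of the 3 lower members held under the 3 other scalings, which moved the median of all genes from 0.41 to between 0.07 and 0.13.

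Whether the state difference itself differed between the organs was tested as an interaction over 14 samples, the same ones as in the comparisons above. limma called 0 of 5 members, with 1 at an unadjusted p under 0.05, and 0 of 4810 genes (0%), of which 376 had a raw p below 0.05. That member was Ccl6, at -2.69 (SE 1.11, limma p 0.0245, adjusted 0.537). As Ccl6 and Ccl9 are at 0 in lymph node and passed the filter through blood, their interaction values (-2.69 and -1.39) are their blood differences with the sign turned and add nothing to them. Of the 3 members above 0 in both organs, 0 had an unadjusted p under 0.05 in limma. With the mouse as a block, over the 12 samples left without S1 and S6, 1 had. This was Ccl5, at 2.86 (limma adjusted p 0.909) against 1.03 in the main fit. Without S6 and with no block, Ccl5 stood at 2.77 (limma p 0.0259, adjusted 0.574).

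The other organs had 1 mouse per state, with different suffixes. Under the trimmed-mean scaling the median log2 ratio of all genes moved from 0.36 to 0.14 in lung, from -0.30 to -0.83 in muscle and from 0.07 to 0.42 in spleen, and Ccl6 in lung from -0.82 to -1.04. Lung had the highest Ccl6, at 1839 UPM in H6 and 1040.0 in S1, in 70 of 70 and 179 of 182 barcodes. Ccl3 was 105 and 297 UPM there, Ccl4 151 and 479 and Ccl9 46.1 and 127, and these 3 of 5 members were past 2-fold higher in CIA, while 47.0% of all genes were past 2-fold in 1 direction or the other. Ccl5 stood at 218 and 141. Summed neutrophil markers were 496 UPM in the lung of H6 and 17489 in that of S1, monocyte markers 980.0 and 2199, and macrophage markers 1989 and 475, with Pecam1 and Cdh5 at 0 in both libraries.

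In muscle the members parted. Ccl6 was 63.3 UPM in H6 and 1385 in S1, 21.8-fold higher, and Ccl9 40.2 and 179.6 UPM, 4.48-fold higher. Ccl3 was 96.9 and 37.8 UPM, Ccl4 155 and 54.4, and Ccl5 403 and listed at 0. With each distinct profile counted once, the log2 ratio of Ccl3 turned from -1.32 to 0.069. All 5 were past 2-fold in 1 direction or the other, as were 66.1% of all genes, and the CIA library had 54 barcodes of 16 distinct profiles. Summed macrophage markers were 147 UPM in the muscle of H6 and 2919 in that of S1, with 6 of 8 at 0 in the former and Adgre1 at 0 in the latter, and T cell markers 443 and 47.3. In the CIA muscle, barcodes with Ccl6 held 4457 UPM of macrophage markers and those without it 534. In the healthy muscle, barcodes with Ccl6 held 155864 UPM of neutrophil markers and those without it 48429. The part of these marker levels in the differences was not tested, and the healthy library lacked the muscle markers as given above.

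Spleen had lower Ccl4 and Ccl5 in S1. Ccl5 was 1056 UPM in H6 and 136 in S1, 7.76-fold lower, and Ccl4 586 and 93.0, 6.29-fold lower. These 2 of 5 members were past 2-fold, as were 52.6% of all genes. Ccl3 was 188 and 119 UPM, Ccl6 103 and 73.8, and Ccl9 48.2 and 44.5. The NK and cytotoxic markers summed to 397 UPM in H6 and 183 in S1, T cell markers to 334 and 383, and neutrophil markers to 4407 and 98114, and their part was not tested. In thymus Ccl5 was 167 and 78.7 UPM, and 1 of 2 members with enough units was past 2-fold, against 39.4% of all genes. Ccl4 was 13.1 and 26.01 UPM there and Ccl3 5.83 and 0. Skin held Ccl5 at 26.3 and 38.7 UPM and Ccl3 at 0 and 10.6, and 0 of 1 member with enough units was past 2-fold, against 38.7%.

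**Figure D4:**
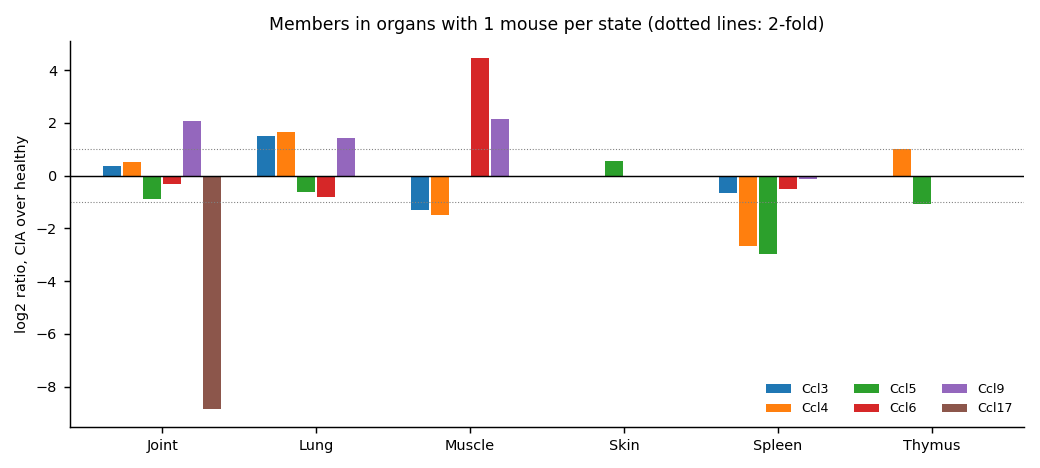
Log2 ratio of CIA over healthy UPM, with 0.5 units added to each side, for 6 members in the organs with 1 mouse per state; bars start at 0, dotted lines mark 2-fold, and members under 50 units or at 0 in 1 state have no bar. Ccl17 reaches -8.86 in joint, Ccl6 4.45 in muscle, and Ccl3 and Ccl4 are above the upper line in lung and below the lower one in muscle.

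Likeness over organs was described by Pearson's r of log2(UPM + 10) over the 26 mouse-and-organ samples, which share libraries, depth and organ, among 5417 genes. Ccl3 was most like Tyrobp (0.90), Skap2 (0.87) and Plek (0.86). For Ccl4 these were Ccl3 (0.84), Pld4 (0.84) and Plek (0.80), and for Ccl6 Clec7a (0.91), Clec4a3 (0.89) and Lyz1 (0.87). Ccl9 was most like Skap2 (0.85), Lyz2 (0.85) and Rassf4 (0.84). Ccl5 had other neighbours, Gm13422 (0.76), Gimap5 (0.76) and Epc1 (0.74). Among members, r was 0.74 for Ccl6 with Ccl9 and -0.24 for Ccl5 with Ccl6. Ccl17 and Ccl22 were above 0 in too few samples.

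Within libraries, barcodes with a member were set beside those without it by the summed markers of each list. Barcodes with Ccl6 had the higher monocyte sum in 12 of 13 libraries, the higher neutrophil sum in 11 and the higher macrophage sum in 10. Those with Ccl9 had the higher monocyte sum in 11 of 15 libraries and the higher macrophage sum in 10, but the higher neutrophil sum in 4. In the CIA joint library with the suffix 2CIA, neutrophil markers stood at 219662 UPM in barcodes with Ccl6 and 117049 in those without, and at 69485 with Ccl9 and 198487 without. The NK and cytotoxic sum was higher with Ccl5 in 18 of 25 libraries, the T cell and monocyte sums in 17 each and the dendritic sum in 16. For Ccl3 and Ccl4 the monocyte sum was higher in 18 of 23 libraries each, the neutrophil sum in 16 and 17, the NK and cytotoxic sum in 14 and 17, and the fibroblast sum in 2 and 1. The erythroid sum was higher in 14 and 15 of them, and the skeletal muscle sum in 12 and 14. Barcodes with Ccl17 in the healthy joint held 7906 UPM of neutrophil markers against 94769 without it, 1028 against 561 UPM of macrophage markers and 126 against 16.8 of dendritic markers. For Ccl17 the platelet sum was also higher with it, at 185 against 21.9 UPM, as were the erythroid (23808 against 13747), endothelial (2924 against 2101) and keratinocyte sums (141 against 119). Smoothed barcodes share neighbours and are not independent, so these counts are a description.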

How the data were processed

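Values were the smoothed signal the authors deposited for 30 Seq-Well libraries. By the study's methods, reads were aligned to GRCm38 and molecules counted per barcode, and the data were smoothed over nearest neighbours with k = 12. The 8282 columns held 4590 distinct profiles of whole numbers, with totals of 4373 to 36435 (median 7615), so no counting interval was derived. No doublet caller was run on these smoothed columns. The study's methods give an upper limit of transcripts per cell for an analysis of 5 organs, and whether it was applied to these columns was not given in the sources used here. Symbols were found for 21404 of 23013 Entrez rows.

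Units were summed per mouse and organ and scaled to a total of 1000000 (UPM). limma 3.58.1 in R 4.3.3 was fitted to log2(UPM + 10) with a mean-variance trend, keeping genes whose mean reached 25 UPM, with Benjamini-Hochberg adjustment over all of them and a threshold of 0.05. The added 10 shrinks the differences of low genes. Members under the filter had an exact permutation test over mice, also within mice (by sign flips, chosen after seeing the data) between organs. Organs with 1 mouse per state were compared by 2-fold among genes with at least 50 units. The same healthy mice gave blood and lymph node, so the mouse as a block was an alternative. Labels do not say how mice were housed or processed together. Within 1 organ, p-values measure the spread between mice together with that between their libraries. Between organs, the main fits took the 2 organs of a mouse as independent samples. The submitters' processing notes list other builds, and no coordinate was taken from the deposited files. Sequences were read from RefSeq tables (GRCm38.p6) with Biopython 1.88.

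All 7 members, their receptors (1 is not reported here) and 13 other CC chemokines (up to 4 named by joint level) were reported, with the 3 most alike genes for members above 0 in at least 5 samples. Members and lists were chosen with earlier results of these data known. Alternatives were other scalings, a pseudocount of 1, no filter, no trend, distinct profiles, libraries of the suffix 2CIA, single libraries as samples and leaving out each mouse.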

Additional observations from a re-analysis of the deposited data

Results flagged for a closer look

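In the healthy blood of 4 mice, the highest value stood apart from the other 3 for Ccl4, at 740.2 UPM in H3, and for Ccl9, at 69.0 UPM in H3, by a gap of more than 0.829 of the whole range. That library had the fewest barcodes of all, 27. These were 2 of 8 groups screened, both flagged through the same library, on UPM and not on the log2 scale of the tests. The rule marks about 1 in 20 by chance when values are normal, which was not checked.

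Ccl3 and Ccl4 were past 2-fold in opposite directions in organs with 1 mouse per state. The log2 ratio of CIA over healthy for Ccl3 was 1.49 in lung and -1.32 in muscle, but the latter turned to 0.069 with each distinct profile counted once. For Ccl4 it was 1.66 in lung, -1.48 in muscle and -2.65 in spleen. These differences between organs were not tested.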

How the results depend on the processing

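The number of members called was 0 under every alternative tried for blood, lymph node, the 2 healthy organs and the interaction, except that leaving out 1 mouse gave a range of 0 to 1 in blood and of 0 to 1 for healthy lymph node against healthy blood, in both cases 1 without H6. With the mouse as a replicate block, which left 12 samples with both organs for the interaction, 0 members were called for the healthy organs and 0 for the interaction, so pairing changed no call of a member. Over all genes of the healthy organs the block took the calls from 2 to 0. The blocked interaction fit, which also left out S1 and S6, gave Ccl5 2.86 (limma p 0.0407) against 1.03 in the main fit. For Ccl3 it gave -0.56 against -1.54. Without S6 and with no block, Ccl5 already stood at 2.77 (limma p 0.0259). The Ccl3 value was also smaller in size without S1 alone or without S6 alone, with no block. The part of the block cannot be read from this fit, because the samples changed with it. The exact p of Ccl9 between the healthy organs was 0.125 within pairs, against 0.0286 without pairing. In the joint, 4 members were past 2-fold when each distinct profile was counted once (Ccl4 and Ccl5 in addition, the latter at -2.62) and 6 when the CIA library with the suffix CIA stood alone, where Ccl3, Ccl4, Ccl5 and Ccl17 are at 0. The trimmed mean moved the median of all genes in the interaction from 0.29 to 0.59. From 0.52, Ccl4 in the joint passed 2-fold at 1.11 with a trimmed mean of log ratios and 1.08 with the median of ratios.

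In the limma comparisons, signs turned among single members not past a threshold. In blood these were Ccl4 with the suffix 2CIA only (-0.48) and Ccl5 without S7 (0.40, range -3.19 to 0.40 when leaving out 1 mouse). Ccl4 in lymph node turned without H4 (-0.30, range -0.30 to 0.81). Ccl5 between the healthy organs turned without H3 (0.65) or H7 (0.07, range -0.63 to 0.65). In the interaction Ccl4 turned to 0.052 with a trimmed mean, 0.40 with a pseudocount of 1, 1.93 with the suffix 2CIA only, 0.25 without H6, 0.41 without H7 and 0.0049 without S2 (range -0.93 to 0.41), and Ccl5 to -1.09 without S7 (range -1.09 to 2.77). Ccl6 in the joint, at -0.34, turned above 0 with a trimmed mean and with each distinct profile counted once. Ccl3 in muscle, past 2-fold lower at -1.32, lost that call and turned to 0.069 with each distinct profile counted once. The causes were not tested. Depth in reads is not known from these smoothed values.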
